A study of Arabidopsis thaliana with 16 samples.

Results

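The comparison described here is the shorter of the inductions in a study of rga-delta17, a DELLA protein form, in Arabidopsis thaliana. Shoots collected 2 h after dexamethasone (DEX) was given together with gibberellin were set against shoots collected 2 h after gibberellin alone. The members are the 6 of 16 arrays whose titles name this line at 2 h, 3 with DEX and 3 without (mock). All 6 came from 1 transgenic line in ecotype Ler, called the rga line here, whose rga-delta17 transgene is silent until DEX is given and whose product, a dominant DELLA form, does not respond to gibberellin. Seedlings were 8 days old, grew under continuous light on medium with sucrose, and all of them, mock included, received a first spray of 2 µM GA4, a gibberellin, 16 h before the start. Mock seedlings were then sprayed with 2 µM GA4 and the others with 2 µM GA4 plus 10 µM DEX. The other 10 arrays used beside these are 4 h mock and DEX samples of the same line, 3 each, and 4 h mock and DEX samples of a line whose construct has an empty cassette, 2 each. This vector line shared the ecotype, age and sprays. No vector line array at 2 h was available, so an effect of DEX itself and an effect of the transgene cannot be told apart from the 2 h arrays. The promoter of the transgene is not given in the labels. Whole shoots were used, in which fewer cells of a type and less RNA per cell cannot be told apart.

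DELLA proteins are nuclear regulators that hold back growth. Gibberellin binds a GID1 receptor, the receptor then binds the DELLA protein through its DELLA motif, and an F-box protein, SLY1 in Arabidopsis, directs the DELLA protein to degradation. A DELLA form that lacks a working DELLA motif is not removed in this way and stays in the nucleus when gibberellin is present. DELLA proteins have no known DNA-binding domain of their own and act on gene activity together with other transcription factors.

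Signals are linear MAS5 intensities of Affymetrix ATH1 probe sets and are compared only within a probe set. Log2 changes were computed after signals below 8 had been raised to 8. On the 6 arrays at 2 h, the array medians lay between 177 and 190, between 7.51% and 10.1% of probe sets were at that floor, and arrays of the same group correlated at 0.956 to 0.964. The vector line arrays with DEX stood apart from these 6, with correlations of 0.870 to 0.908. LHCB4.1, an antenna gene of the photosystems, lay between 12812 and 16686 in mock and between 14151 and 15379 with DEX. Of 14 root markers 3 were measured and none was called, with summed signals of 6697.5 to 7690 in mock and 7665 to 8347 with DEX, nearly all from PYK10, a beta-glucosidase gene known from roots. The part of root tissue in the results was not tested. No member of the mesophyll, epidermis and phloem marker lists was measured. Measured means here that the probe table names the gene, alone, for a probe set. The table names no gene for 8730 of the 22746 probe sets tested. Listed genes not counted as measured may therefore still have a signal on the arrays.

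With DEX for 2 h, 444 probe sets were higher and 139 lower, 583 in all of the 22746 tested, which is 2.56% (1.95% higher and 0.611% lower). A call means a Benjamini-Hochberg adjusted p below 0.05 in 1 limma fit of all 16 arrays. The median log2 change was 0.87 among probe sets called higher and -0.58 among those called lower. A change of at least 2-fold was reached by 178 of the 444 and 21 of the 139, and one of at least 8-fold by 14 and 0. The DEX signals did not overlap the mock signals for any called probe set, while over all probe sets tested they lay wholly above in 8.19% and wholly below in 7.47%. Of the higher probe sets 223 have 1 named gene, 5 several and 216 none in the probe table, and of the lower ones 60, 5 and 74. Of the 283 distinct named genes called, 53 have a symbol beyond a locus number, 42 higher and 11 lower, and most of the description below is about these. Outside the gene lists, called genes are grouped by role for description only, after their values had been seen. Counts of calls in lists and families below stand beside the 2.56% called over all probe sets tested, and most rest on few genes. When each of the 6 arrays was left out in turn, 255 of the 444 rises and 38 of the 139 falls kept their call every time.

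**Figure D1:**
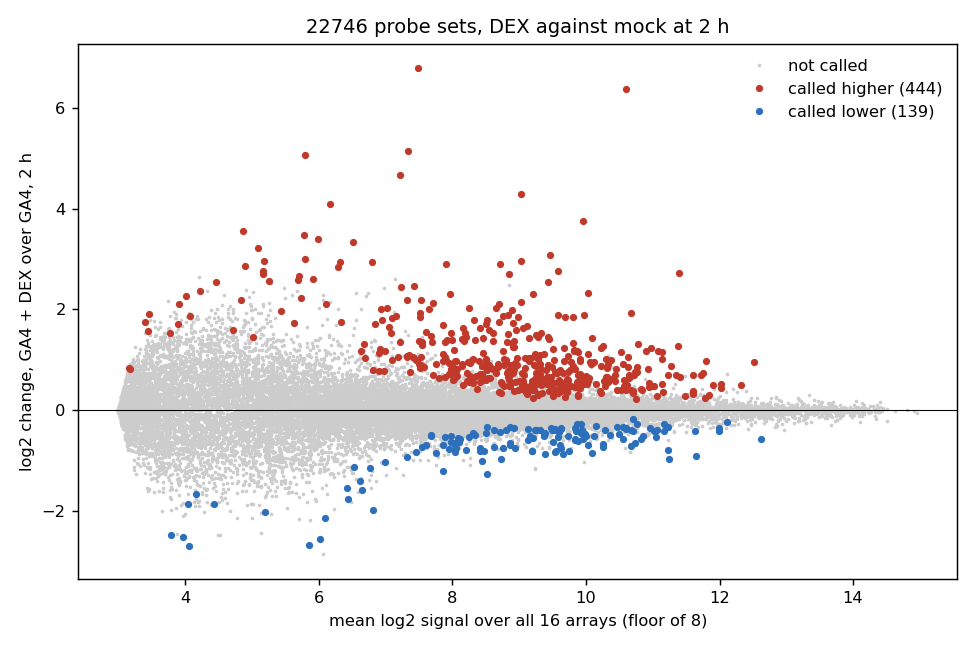
Log2 change of DEX over mock at 2 h (y axis) against the mean log2 signal over all 16 arrays (x axis) for the 22746 probe sets tested, with the 444 called higher in red, the 139 called lower in blue and the rest in grey. More called points lie above 0 than below it, and the largest changes are rises.

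GID1B and SLY1 were the 2 genes of gibberellin perception and signalling that were called, and both rose. Among all 583 calls, 444 were rises. Of 13 genes listed for gibberellin perception and signalling, 7 were measured: 2 rose, 0 fell and 5 were not called, with a median log2 change of 0.28, where the median of all probe sets tested was 0. GID1B, a gibberellin receptor gene, gave signals of 346, 262 and 376 on the mock arrays and 1004, 927 and 836 with DEX. The lowest DEX signal was far above the highest mock signal, and the log2 change was 1.5 ± 0.18 (SE, adjusted p = 0.000457). The other receptor genes did not pass the test: the log2 change was 0.28 for GID1A (adjusted p = 0.32) and -0.21 for GID1C (adjusted p = 0.636). SLY1, the F-box gene whose product marks DELLA proteins for degradation, gave 543, 428 and 491 in mock and 673, 656 and 729 with DEX. Its groups did not overlap, and it rose by 0.50 ± 0.12 (adjusted p = 0.0431). This call was lost when any array other than mock array 1 was left out (adjusted p = 0.08 to 0.152). SEC and SPY, which code for sugar transferases that modify DELLA proteins, changed by 0.30 (adjusted p = 0.252) and 0.15 (adjusted p = 0.491), and SLY2, the F-box relative of SLY1, by 0.10 (adjusted p = 0.946). None of 25 listed genes of gibberellin synthesis and breakdown was named in the probe table, so their signals could not be looked up.

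Of 12 genes that the study put forward as putative DELLA targets, 6 were named in the probe table, and 5 of these rose (median log2 change 1.17). The rest could not be matched to a probe set by name and are not described. These genes were picked by the study from these same arrays, so the count is not independent evidence of their direction. IQD22, which codes for a protein with a calmodulin-binding IQ domain, gave 214, 259 and 219 in mock and 790, 548 and 751 with DEX, a log2 change of 1.58 ± 0.16 (adjusted p = 0.000161). DEX array 2 was the lowest of its group and was still far above mock. The locus AT5G50915 gave 143, 151 and 119 in mock and 384, 409 and 413 with DEX (log2 change 1.55 ± 0.17, adjusted p = 0.000338). For AT2G31730 the signals were 188, 179 and 167 in mock and 343, 337 and 279 with DEX, a rise of 0.84 ± 0.15 (adjusted p = 0.00814). XERICO, a RING-type gene whose overexpression raises abscisic acid, gave 270, 276 and 232 in mock and 439, 410 and 412 with DEX. Its rise of 0.70 ± 0.14 (adjusted p = 0.0157) was lost without mock array 3 or without DEX array 1 (adjusted p = 0.0614 and 0.0706). GID1B is the other gene called in this list, and GID1A the gene not called.

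**Figure D2:**
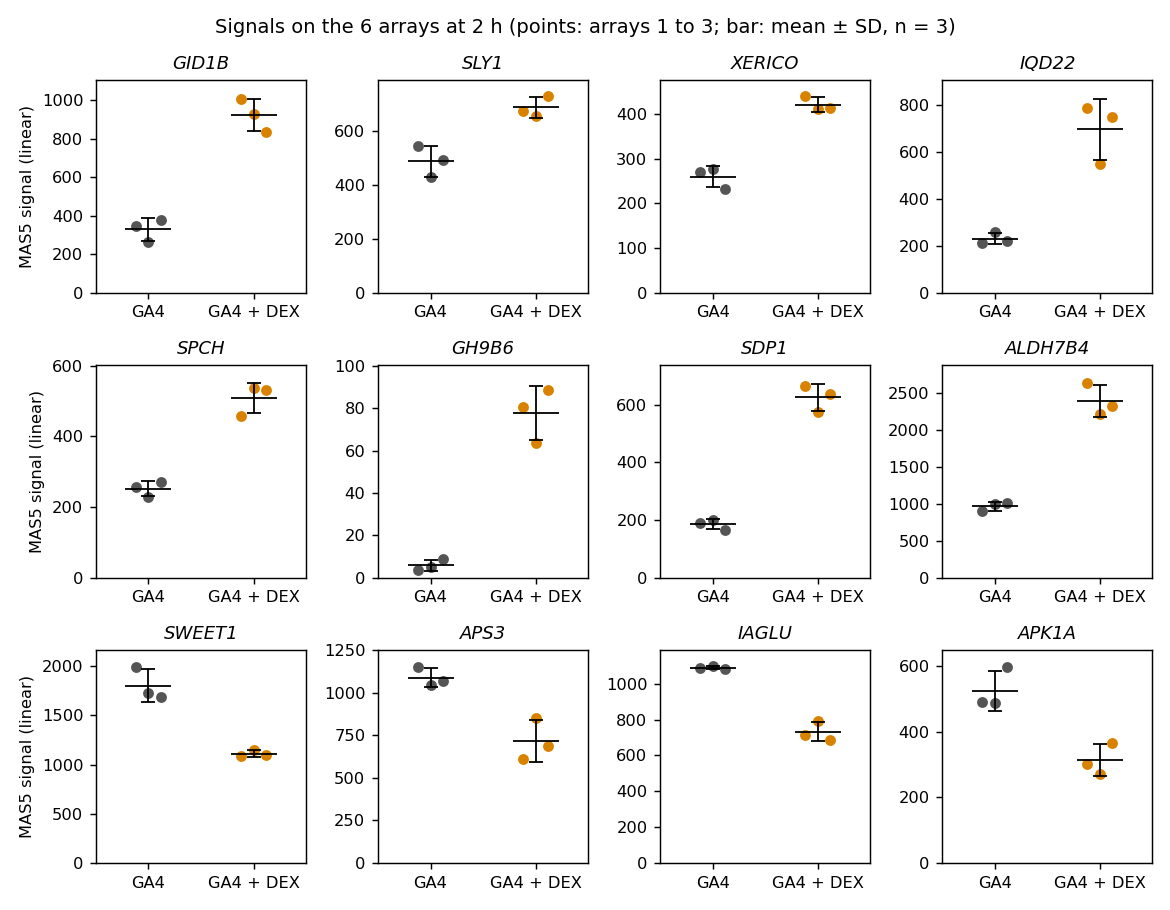
Linear MAS5 signals (y axis, from 0) of 12 genes on the 3 mock arrays (GA4) and the 3 DEX arrays (GA4 + DEX) at 2 h, with the mean and SD of each group (n = 3). GID1B, SLY1, XERICO, IQD22, SPCH, GH9B6, SDP1 and ALDH7B4 were called higher, SWEET1, APS3, IAGLU and APK1A were called lower, and the 2 groups do not overlap in any panel.

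The largest rise of a gene with a symbol was that of MYBC1, a MYB-family transcription factor gene known for a role in freezing tolerance. Its signals were 8.52, 75.5 and 5.12 in mock and 1857, 1945 and 1920 with DEX, a log2 change of 6.79 ± 0.64 (adjusted p = 8.99e-05). The DEX arrays were close to each other and the mock arrays were not, with mock array 3 under the floor. In a fit of the 6 arrays alone its adjusted p was 0.0541. Loci without a symbol were also among the largest rises. AT2G24550 went from 119, 168 and 127 to 1009, 701 and 975 (log2 change 2.70 ± 0.21, adjusted p = 1.69e-05). For AT2G36220 the signals went from 233, 224 and 291 to 1579, 1227 and 1517 (2.53 ± 0.18, adjusted p = 9.76e-06). In both, DEX array 2 was the lowest of the DEX arrays and the groups lay far apart. AT3G46960 rose by 2.31 ± 0.16, AT1G32780 by 2.47 ± 0.22 and AT1G18610 by 2.12 ± 0.21. The rise of AT3G02070, from 284, 271 and 245 to 1101, 1000 and 1071, had the smallest SE of these (1.99 ± 0.11, adjusted p = 1.4e-06). AT3G58060 was dim and uneven in mock, at 45.5, 11.3 and 27.2, and gave 223, 300.4 and 290 with DEX. It rose by 3.48 ± 0.64, a call lost without mock array 2 (adjusted p = 0.0505).

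Among loci that were bright with DEX, AT5G47060 rose from 756, 804 and 827 to 2205, 1960 and 2248, by 1.42 ± 0.12 on the log2 scale. AT1G75860 rose from 509, 517 and 512 to 1303, 1452 and 1424 (1.44 ± 0.10), and AT5G18590 by 1.5 ± 0.10. The mock arrays of AT1G75860 differed by less than 10 signal units.

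Some rises started from no measurable level. Of the 444 higher probe sets, 7 were at the floor on all 3 mock arrays, and a fold for them is a lower bound. AT1G64405 was at the floor in mock and gave 275, 230 and 305 with DEX, at least 33.5-fold higher (adjusted p = 6.51e-07). AT1G05577, at 91.8, 71.8 and 127 with DEX, was at least 11.8-fold higher (adjusted p = 1.31e-05). AGL99, a MADS-box gene of the AGAMOUS-like family, reached 32.9, 81.2 and 72.1 with DEX from the floor, at least 7.22-fold higher (adjusted p = 0.00609). Its DEX signals were dim and spread, and with a floor of 32 its log2 change was 0.85 and not called (adjusted p = 0.13). AT2G07430 was at least 3.36-fold higher, a call lost without any array other than DEX array 1 (adjusted p = 0.0615 to 0.122) and with a floor of 32 (adjusted p = 0.559). In the other direction, AT5G38040 went from 40.3, 52.9 and 41.6 to the floor on all 3 DEX arrays, at least 5.57-fold lower (adjusted p = 0.00953).

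Genes for cell wall enzymes rose in part, while the expansins, which loosen walls during growth, were not called. GH9B6, an endoglucanase gene of glycosyl hydrolase family 9, gave 3.88, 5.0 and 8.89 in mock and 80.7, 63.7 and 88.6 with DEX (log2 change 3.22 ± 0.21, adjusted p = 5.74e-06). It was dim in both groups, with mock arrays 1 and 2 under the floor. GH9C2 of the same family rose from 449, 435 and 405 to 562, 634 and 603 (0.48 ± 0.06, adjusted p = 0.00132), and the other 13 measured members were not called, with log2 changes of -0.44 to 0.54. XEG113, which codes for an arabinosyltransferase of wall extensins, rose from 626, 610 and 728 to 1294, 1121 and 1362 (0.94 ± 0.12, adjusted p = 0.000787). EXGT-A3, a xyloglucan endotransglucosylase gene of the XTH family, gave 1794, 1531 and 1422 in mock and 2391, 2441 and 2822 with DEX. Its rise of 0.69 ± 0.10 (adjusted p = 0.00309) was the only call among 7 measured of 19 listed XTH genes, whose median was 0.05. None of 9 measured of 16 listed expansin genes was called, and their log2 changes ran from -0.55 to 0.86 with a median of -0.08. TBL25, of a family that acetylates wall polysaccharides, fell by 0.55 on the log2 scale, the only call among 22 measured TBL genes, and lost its call without mock array 1 or 2 or DEX array 1 or 2 (adjusted p = 0.0817 to 0.142).

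The genes described next code for enzymes that act on lipids or their precursors. SDP1, a lipase gene named SUGAR-DEPENDENT1 that starts the breakdown of stored oil in seedlings, gave 189, 202 and 167 in mock and 663, 574 and 637 with DEX (log2 change 1.75 ± 0.12, adjusted p = 8.98e-06). Its relative SDP1-LIKE changed by 1.83 ± 0.60 and was not called (adjusted p = 0.178). LCB2, a subunit gene of serine palmitoyltransferase, the first enzyme of sphingolipid synthesis, rose from 694, 678 and 664 to 1014, 965 and 986 (0.54 ± 0.07, adjusted p = 0.00111). TSC10A, a reductase gene for the next step of the same pathway, rose from 840, 824 and 733 to 1377, 1234 and 1257 (0.69 ± 0.09, adjusted p = 0.0009). Both had tight groups that lay far apart. TSC10B, which codes for the same activity, changed by 0.58 ± 0.77 (adjusted p = 0.856). CCT1, for an enzyme of phosphatidylcholine synthesis, rose by 0.39 (adjusted p = 0.0483), and its call was lost without any 1 of the 6 arrays (adjusted p = 0.0666 to 0.148). PMEAMT, for an enzyme that methylates phosphoethanolamine on the way to phosphocholine, fell by 0.39 on the log2 scale (adjusted p = 0.0243), a call lost without mock array 1 or 2 or DEX array 1 or 3 (adjusted p = 0.052 to 0.101). ACLB-1, a subunit gene of the citrate lyase that supplies cytosolic acetyl-CoA, rose by 0.37 (adjusted p = 0.0174), with the call lost without mock array 2 or 3 or DEX array 1 or 2 (adjusted p = 0.0536 to 0.0763).

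Among cytochrome P450 genes, glucosidases and sugar transferases, which work on small molecules, 2 or 3 measured members of each family were called. This was 6.9% of the P450 genes and 5.77% of the UDP-glycosyltransferase genes, where 2.56% of all probe sets tested were called. Families were matched by symbol or synonym, so they hold only a part of each family. CYP71B26, a P450 gene, rose from 230, 210 and 207 to 895, 938 and 1027 (log2 change 2.14 ± 0.19, adjusted p = 6.26e-05). CYP71B22 rose by 1.14 ± 0.22 (adjusted p = 0.0156), with calls lost without mock array 1 or 2 or DEX array 1 or 3 (adjusted p = 0.0568 to 0.0717). The other 27 of 29 measured P450 genes were not called. BGLU45, a glucosidase gene that acts on glucosides of lignin precursors, rose from 57.5, 48.1 and 62.9 to 175, 138 and 225 (1.66 ± 0.25, adjusted p = 0.00357). BGLU42, of the same family, rose by 0.43 (adjusted p = 0.0153), and its call was lost without mock array 1 or DEX array 1 or 3 (adjusted p = 0.0575 to 0.0705). Another 18 measured BGLU genes were not called. Of 52 measured UDP-glycosyltransferase genes 1 rose and 2 fell: UGT85A2 rose from 475, 476 and 583 to 878, 1081 and 844 (0.87 ± 0.14, adjusted p = 0.00609), and UGT74F1 and IAGLU fell.

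Both of these falls were in genes that attach glucose to hormones. UGT74F1, whose product conjugates salicylic acid, gave 96.6, 115 and 147 in mock and 12.8, 34.6 and 13.6 with DEX. It fell by 2.69 on the log2 scale (SE 0.51, adjusted p = 0.0149), a call lost without mock array 3 or DEX array 1 or 3 (adjusted p = 0.0563 to 0.071). IAGLU, named for an indole-3-acetate glucosyltransferase, gave 1086, 1100 and 1085 in mock and 715, 790 and 688 with DEX. Its mock arrays were nearly equal and all DEX signals lay well below them, a fall of 0.58 (adjusted p = 0.0145). The call of IAGLU was lost without mock array 1 or 2 or DEX array 1 or 3 (adjusted p = 0.0506 to 0.0606), while its log2 change then stayed between -0.58 and -0.54. GH3.3, which codes for an enzyme that joins auxin to amino acids, went from 1553, 1333 and 1896 to 818, 1017 and 854. It fell by 0.82 (SE 0.17, adjusted p = 0.0267), a call lost without mock array 1 or 3 or DEX array 1 or 3 (adjusted p = 0.0771 to 0.113). GH3.3 was the only call among 7 measured of 32 listed auxin response genes. In that list IAA20, a member of the Aux/IAA family, gave 8.58, 44.8 and 9.84 in mock and 85.3, 75.1 and 89.2 with DEX. Its groups did not overlap, but mock array 2 stood far above the other mock arrays and the log2 change of 2.41 ± 0.63 did not pass the test (adjusted p = 0.0765). IAA29 (1.66, adjusted p = 0.158) and GH3.1 (2.00, adjusted p = 0.223) were also dim in mock and not called.

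Some single genes with known roles in stress or immunity rose, while few members of the stress lists were measured. Called were 1 of 5 measured genes of abscisic acid signalling and response and 0 of 3 for touch, cold and early stress. The 1 measured heat shock gene was not called (ATHSP22.0, adjusted p = 0.835). Over all probe sets tested 2.56% were called, and counts this small say little about the lists. ALDH7B4, an aldehyde dehydrogenase gene induced by dehydration, gave 899, 1004 and 1011 in mock and 2637, 2224 and 2330 with DEX (log2 change 1.3 ± 0.08, adjusted p = 4.43e-06). No other of 8 measured ALDH genes was called, and these lay between -0.17 and 0.09. COR47, a dehydrin gene of the cold and abscisic acid response, gave 1244, 1276 and 1001 in mock and 2835, 2377 and 2110 with DEX (1.05 ± 0.16, adjusted p = 0.00287). It was the gene called in the list of abscisic acid signalling and response, of which 5 of 33 were measured. MAMI, a membrane protein gene named for its induction by mannitol, rose from 467, 300.4 and 496 to 822, 762 and 738 (0.91 ± 0.16, adjusted p = 0.00754). UBC32, for a ubiquitin-conjugating enzyme of protein quality control at the endoplasmic reticulum, rose by 0.51 ± 0.09 (adjusted p = 0.0077). Fes1B, for a co-chaperone of HSP70, rose by 0.85 (adjusted p = 0.0155), with the call lost without mock array 2 or DEX array 1 or 3 (adjusted p = 0.0579 to 0.0751). SIZ1, for an E3 ligase that attaches SUMO to proteins, rose from 789, 698 and 854 to 1137, 1088 and 1117 (0.52 ± 0.08, adjusted p = 0.00288). BIK1, a receptor-like cytoplasmic kinase gene of immune signalling, rose from 927, 1000 and 1038 to 1626, 1468 and 1555 (0.65 ± 0.10, adjusted p = 0.00283). The genes STZ, CML37 and CML38, measured from a list for touch, cold and early stress, were not called.

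Genes of transcription and development were called one by one. SPCH, the bHLH gene that starts the stomatal lineage, gave 256, 229 and 271 in mock and 459, 536 and 532 with DEX. All DEX signals lay above all mock signals, and it rose by 1.01 ± 0.12 (adjusted p = 0.00057). The later stomatal genes did not pass: FMA changed by -0.52 (adjusted p = 0.463) and MUTE by 0.65 (adjusted p = 0.883). The signals of SPCH, FMA and MUTE summed to 454 to 476 in mock and 626 to 728 with DEX, a rise mostly from SPCH (means of 252 and 509). The means in mock and with DEX were 170 and 120 for FMA and 39.6 and 56.1 for MUTE. The other listed stomatal markers, KAT1 and MYB60, were not measured. GI, a clock and photoperiod gene, rose from 530, 566 and 511 to 817, 855 and 988 (0.72 ± 0.09, adjusted p = 0.000896) and was the only one measured of 27 listed clock genes. bHLH104, a bHLH gene of the iron response, rose from 510, 465 and 442 to 721, 748 and 844 (0.71 ± 0.08, adjusted p = 0.000446). IQD30, a relative of IQD22, rose from 352, 444 and 365 to 882, 775 and 707 (1.03 ± 0.17, adjusted p = 0.00575), and the other 13 of 15 measured IQD genes were not called. No bZIP gene of 22 and no WRKY gene of 7 was called.

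The remaining rises with a symbol ran from 0.33 to 0.79 on the log2 scale and were in genes of differing roles. THO5, for a subunit of the THO complex that links transcription to mRNA export, rose from 713, 779 and 773 to 1106, 1052 and 1005 (log2 change 0.48 ± 0.08, adjusted p = 0.00627). LIS, named LACHESIS, which codes for a splicing factor homologue, rose by 0.41 ± 0.07 (adjusted p = 0.00455). ATMAP65-6, for a microtubule-associated protein, rose from 201, 182 and 209 to 319, 371 and 333 (0.79 ± 0.14, adjusted p = 0.00974). These 3 kept their call when any 1 of the 6 arrays was left out. XPO1B, an exportin gene, rose by 0.61, ELC, of the ESCRT sorting machinery, by 0.51, VPS2.1, also of ESCRT, by 0.33, and TUA1, an alpha tubulin gene, by 0.34. The calls of XPO1B (adjusted p = 0.0188), ELC (0.0157), VPS2.1 (0.0361) and TUA1 (0.018) were each lost without 4 or 5 of the arrays. For XPO1B the arrays were mock 1 and 2 and DEX 1 and 3 (adjusted p up to 0.0862), and for ELC mock 1 and 3 and DEX 1 and 3 (up to 0.0673). For TUA1 they were mock 2 and 3 and DEX 1 and 3 (up to 0.0828), and for VPS2.1 all except DEX 3 (up to 0.138). None of 5 measured beta tubulin genes was called. RALFL22, a peptide signal gene, went from 1981, 1867 and 1880 to 2717, 2845 and 2696, a rise of 0.53 (adjusted p = 0.0213) whose call was lost without any 1 of the 6 arrays (up to 0.0778). GLDH, for the last enzyme of ascorbate synthesis, rose by 0.40 (adjusted p = 0.0118), lost without mock array 1 or DEX array 1 (adjusted p = 0.0546 and 0.0583). ATGP4 rose by 0.56 and DRT101 by 0.50. Their calls were lost without mock 2 or 3 or DEX 1 or 3 for ATGP4 (up to 0.0906), and without mock 1 or 3 or DEX 1 or 3 for DRT101 (up to 0.127).

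All of the 11 falls with a symbol except that of UGT74F1 were under 2-fold. SWEET1, a sugar transporter gene, gave 1997, 1727 and 1686 in mock and 1085, 1153 and 1094 with DEX. It fell by 0.70 (SE 0.12, adjusted p = 0.00676) and was the only call among 8 measured of 18 listed genes of sugar transport and starvation, whose median was -0.26. APK1A, a protein kinase gene, went from 491, 488 and 596 to 301, 271 and 367, a fall of 0.75 (SE 0.12, adjusted p = 0.00482). SWEET1 and APK1A kept their calls when any 1 of the 6 arrays was left out, and the other 9 falls with a symbol did not. APK1A lost its call in the limma fit of the 6 arrays alone (adjusted p = 0.123). SWEET1 lost its call in the limma fit with the pair number as a replicate block (adjusted p = 0.0667). APS3, an ATP sulfurylase gene of sulfate assimilation, went from 1154, 1049 and 1070 to 609, 853 and 690, a fall of 0.62 (adjusted p = 0.0357). CBL, for cystathionine beta-lyase of methionine synthesis, went from 1851, 1969 and 1846 to 1442, 1580 and 1651, a fall of 0.28 (adjusted p = 0.0269). GSTU27, a glutathione transferase gene, fell by 0.46 (adjusted p = 0.0382) and ARD4, an acireductone dioxygenase gene of methionine salvage, by 0.32 (adjusted p = 0.0292). The calls of these genes were lost without any array other than DEX 2 for APS3 (up to 0.145), DEX 3 for CBL (up to 0.105) and ARD4 (up to 0.106), and mock 2 for GSTU27 (up to 0.136).

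Loci without a symbol also fell, the largest by about as much as UGT74F1 (-2.69). AT1G76640, annotated as CALMODULIN LIKE 39, went from 56.9, 67.4 and 85.6 to 7.93, 12.1 and 12.3, a fall of 2.70 (SE 0.30, adjusted p = 0.000301). DEX array 1 lay just under the floor, so the size depends on it. AT5G62360 went from 885, 1311 and 901 to 404, 445 and 419 (-1.27 ± 0.22, adjusted p = 0.00932), and AT3G19030 from 2678, 2905 and 3173 to 1353, 1234 and 1902 (-0.99 ± 0.17, adjusted p = 0.00941). Among bright loci, AT5G02480 went from 4043, 4363 and 3754 to 2032, 2483 and 2470, a fall of 0.80 (adjusted p = 0.00396). All 4 of these loci kept their calls when any 1 of the 6 arrays was left out. AT2G33720 (-2.03) and AT2G23950 (-1.77) did not, with adjusted p up to 0.101 and 0.128: the first was lost without any array other than mock 2, and the second without mock 1 or 2 or DEX 1 or 2. Of the first 4 loci, AT5G62360 and AT3G19030 lost their calls in the limma fit of the 6 arrays alone (adjusted p = 0.051 and 0.104). AT5G62360 also lost its call in the limma fit with the pair number as a replicate block (adjusted p = 0.0529).

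Most other listed groups held few measured genes and no calls at 2 h. None was called among 3 measured of 24 listed PIF and growth-related bHLH genes, 2 of 9 GASA genes, 3 of 28 cell cycle genes, 2 of 29 photosynthesis genes, 3 of 21 flavonoid genes, 3 of 26 jasmonate genes, 2 of 18 cytokinin genes or 1 of 21 ethylene genes. With so few members measured, these counts say little about the groups as wholes. HYH, a bZIP gene of light signalling listed with the PIF group, gave 591, 516 and 601 in mock and 503, 440 and 331 with DEX, groups that did not overlap, but its log2 change of -0.44 did not pass the test (adjusted p = 0.15). CLV3, a shoot meristem marker, was dim throughout, at 3.23 to 12.3 in mock and 13.2 to 18.0 with DEX, and was not called (adjusted p = 0.0647).

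**Figure D3:**
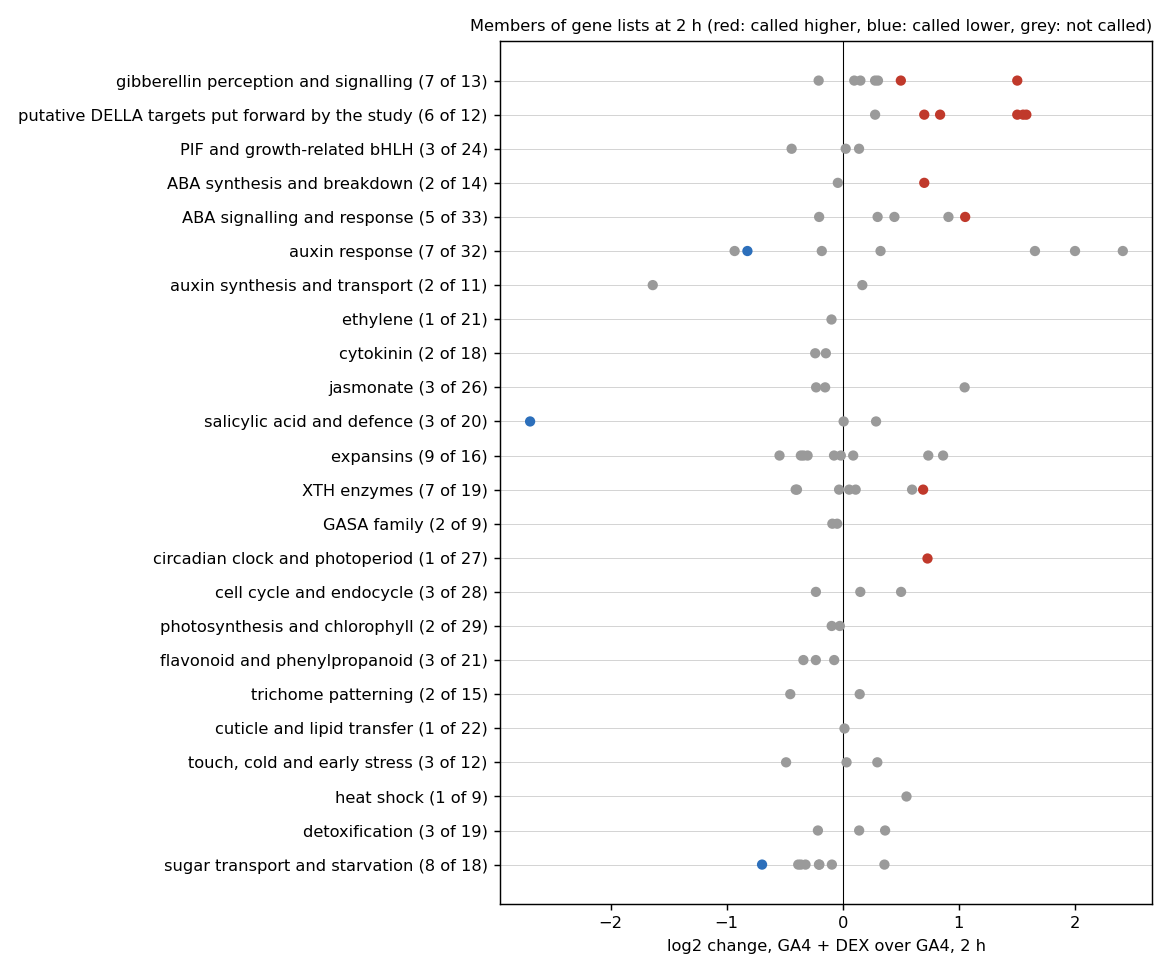
Log2 change of DEX over mock at 2 h (x axis) for each measured member of the gene lists (1 line per list, with the number measured of the number listed), red where called higher, blue where called lower and grey where not called. The marker lists are not drawn. Called members stand on 9 of the lines drawn, and the putative DELLA target list, which the study chose on these samples, holds 5 of them.

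Of the 444 probe sets higher at 2 h, 285 were also called higher at 4 h in the rga line, which is 64.2% of them and 55.3% of the 515 called higher at 4 h (2.26% of those tested, of 3.02% called either way). Of the 139 lower ones, 42 were called lower at 4 h, which is 30.2% of them and 24.3% of 173 (0.761% of those tested). The 2 h and 4 h comparisons share no array, but they share the estimate of spread. The median log2 change of the probe sets called higher at 2 h was 0.71 at 4 h, and that of the lower ones was -0.32. Because the sets were chosen at 2 h, these medians are a description and not a test of the times. In the test of the difference of the DEX effects between 4 h and 2 h, no probe set was called by limma (0%), and 1373 had an unadjusted p below 0.05. Among named genes with the smallest p in that test, AT1G77770 rose at 2 h from 245, 275 and 283 to 624, 624 and 642 (1.24 ± 0.08), and its log2 change at 4 h was 0.25 (adjusted p of the difference 0.0509). For AT1G76640 the adjusted p of the difference was 0.0898, but at 4 h both groups lay under the floor, with mean signals of 3.58 in mock and 3.85 with DEX, so no effect of DEX could be measured there. UND, named UNDEAD, had log2 changes of -1.66 at 2 h, not called (adjusted p = 0.0876), and 2.80 at 4 h, with an adjusted p of the difference of 0.0713. Its 4 h mock mean of 6.21 was under the floor, so the size at 4 h depends on the floor.

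In the vector line at 4 h, which lacks the transgene, DEX changed far more probe sets: calls were made for 35.3%, with 13.6% up and 21.7% down. Both vector line arrays with DEX, which stood apart from the others, had medians of 137 and 140 with 13.7% of probe sets at the floor. In vector mock the medians were 167 and 167, with 12.5% and 13.4% at the floor. The part of these array differences in the vector line's calls was not tested. Against this background, 374 of the 444 probe sets higher at 2 h in the rga line (84.2%) were called higher there too, and 117 of the 139 lower ones (84.2%) were called lower. These 2 sets are 12.1% and 2.37% of the vector line's calls in their direction. Their median log2 changes in the vector line were 1.52 and -1.41. The 2 h and vector line comparisons share no array, but they too share the estimate of spread. At 4 h, the DEX effect of the rga line was called below that of the vector line for 271 of the 444 and above it for 35 (over all probe sets tested 22.1% were called, 7.95% below and 14.1% above). For the 139, it was above for 105 and below for 8. The vector line has 2 arrays per group and was sampled at 4 h only, and how the 2 h changes would stand against a vector line at 2 h was not tested.

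Among the 42 genes with a symbol that rose at 2 h, 38 were called higher in the vector line at 4 h, 1 was called lower and 3 were not called. The 3 not called were SPCH (log2 change 0.37, adjusted p = 0.0791), ATMAP65-6 (0.20, adjusted p = 0.45) and SLY1 (-0.25, adjusted p = 0.208), and the 1 called lower was XERICO (-0.68, adjusted p = 0.00605). At 4 h in the rga line, SPCH changed by 0.90 (adjusted p = 0.00125), ATMAP65-6 by 0.32 (adjusted p = 0.333) and SLY1 by 0.17 (adjusted p = 0.604). The difference between the lines at 4 h was called for XERICO (1.42, adjusted p = 0.000507) and not for SPCH (0.53, adjusted p = 0.0717), ATMAP65-6 (0.13, adjusted p = 0.782) or SLY1 (0.42, adjusted p = 0.134). GID1B had log2 changes of 1.91 at 4 h and 1.18 in the vector line, and the difference between the lines was 0.72 (adjusted p = 0.0888). IQD22, also in the putative DELLA target list, rose by 2.19 in the vector line (adjusted p = 3.11e-06). Its rise at 4 h was smaller in the rga line, with a difference between the lines of -0.887 (adjusted p = 0.0249). ALDH7B4 went further in the rga line at 4 h (1.85) than in the vector line (1.12), a difference of 0.73 (adjusted p = 0.00142). This direction was the rarer one among the 42 rises. Their DEX effect at 4 h was called above that of the vector line for 3 and below it for 27. For 12 the difference between the lines was not called. MYBC1 had log2 changes of 7.30 and 3.53, but its 4 h mock mean was 7.66 in the rga line, under the floor, and 99.5 in the vector line, while the DEX means were 1474 and 1144, so these sizes are set against unlike mock levels. Of the 11 falls with a symbol, 10 were called lower in the vector line, and APS3 was not (-0.29, adjusted p = 0.235).

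**Figure D4:**
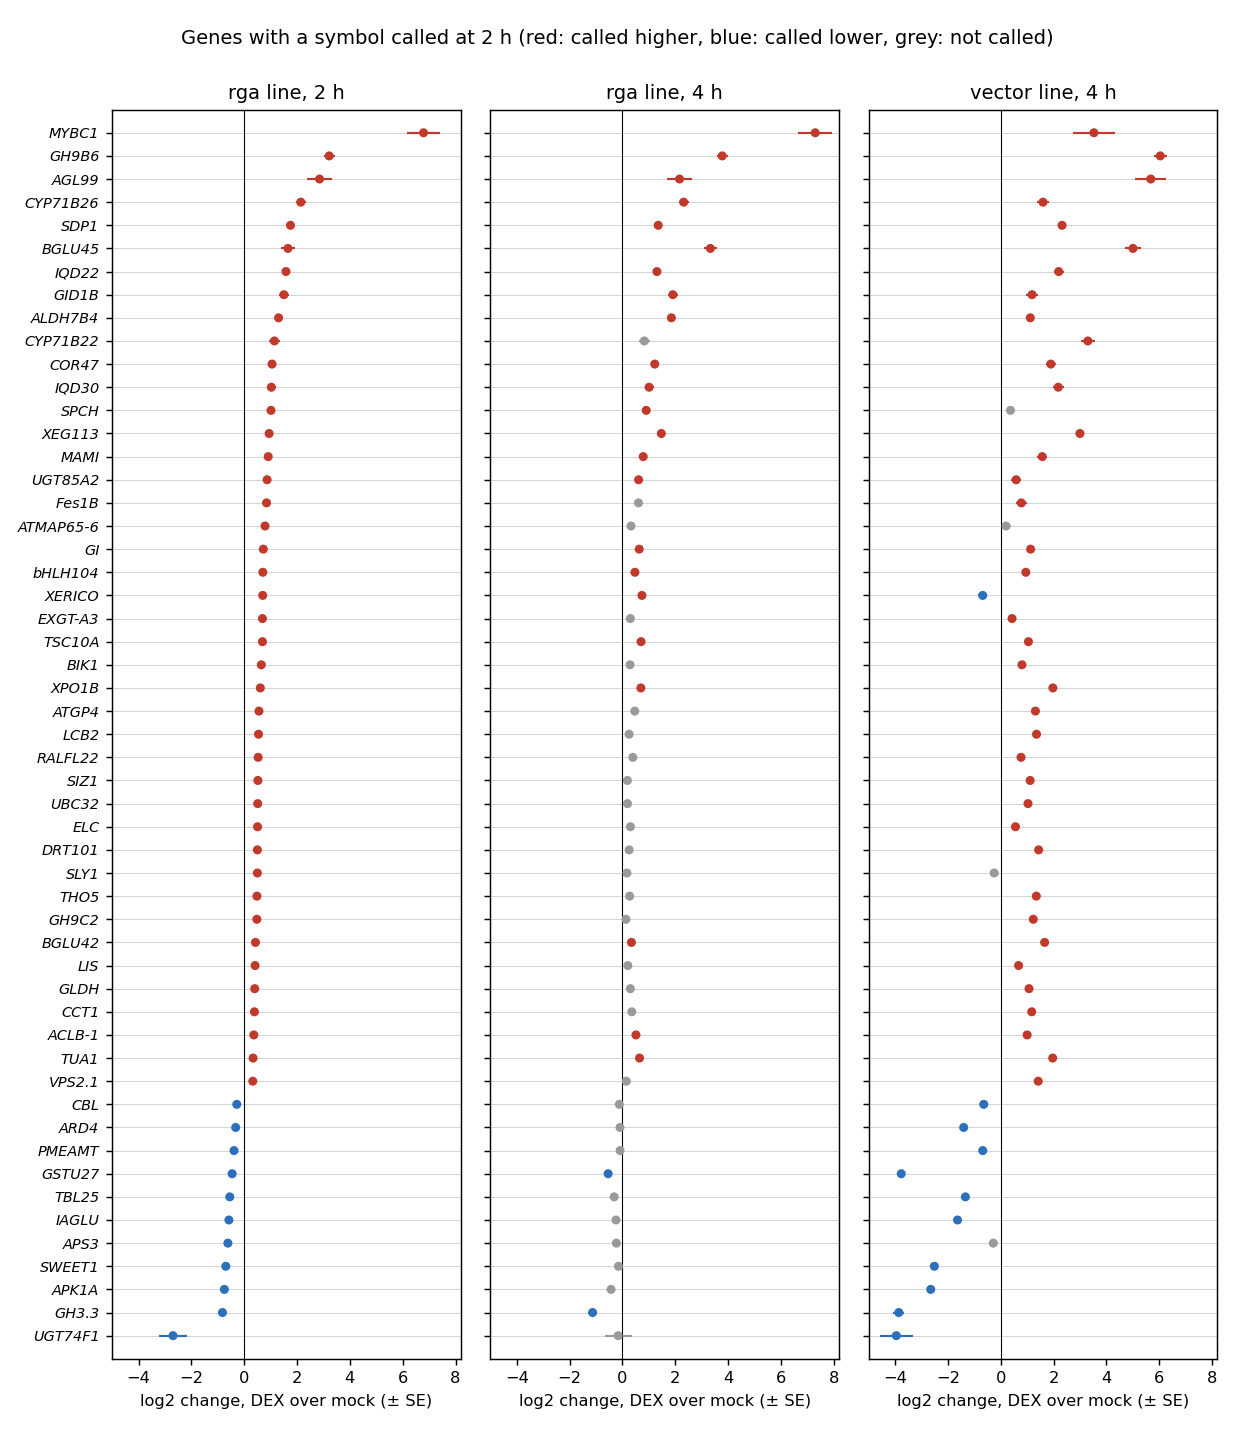
Log2 change of DEX over mock with its SE (x axis) for the 53 genes with a symbol called at 2 h, in the rga line at 2 h, the rga line at 4 h and the vector line at 4 h, red where called higher, blue where called lower and grey where not called. At 4 h in the rga line 23 of the 42 rises and 2 of the 11 falls were called again, while in the vector line 38 and 10 were called in the same direction and XERICO in the opposite one.

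Over all probe sets, 14 of the 444 higher at 2 h were called lower in the vector line and 5 of the 139 lower were called higher. Among named genes these were AT5G50915, AT2G31730, XERICO, AT1G22570 and AT2G42100 for the rises and AT1G67920 and AT1G49500 for the falls. AT5G50915 changed by 2.12 at 4 h in the rga line and by -0.72 in the vector line (difference between the lines 2.83, adjusted p = 2.17e-05). For AT2G31730 these values were 0.87 and -1.35 (difference 2.22, adjusted p = 3.54e-05). AT1G22570 rose at 2 h from 383, 430 and 387 to 566, 597 and 567 (0.53 ± 0.10, adjusted p = 0.0135), changed by 0.18 at 4 h and by -0.46 in the vector line. Its 2 h call was lost without mock array 1 or DEX array 2 (adjusted p = 0.0586 and 0.0527). AT2G42100 was dim, at 2.32 to 11.8 in mock and 25.8 to 70.0 with DEX, and its call was lost without any array other than DEX 1 (adjusted p = 0.0844 to 0.149) and with a floor of 32 (adjusted p = 0.462). In the other direction, AT1G67920 went from 63.5, 43.7 and 61.1 to 9.46, 10.8 and 5.42 at 2 h (-2.57 ± 0.28, adjusted p = 0.000286), changed by -0.48 at 4 h in the rga line and rose by 1.74 in the vector line. DEX array 3 lay under the floor of 8 for this locus, and with a floor of 32 its 2 h change was -0.79 and not called (adjusted p = 0.144). AT1G49500 went from 1958, 2075 and 1631 to 1306, 1264 and 1323 at 2 h (-0.53 ± 0.09, adjusted p = 0.00829), with log2 changes of -0.27 at 4 h and 0.32 in the vector line (adjusted p = 0.0485).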

How the data were processed

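Total RNA of 16 samples was hybridised to 1 single-colour array each. The deposited intensities, 1 per probe set, are the authors' MAS5 output according to the submitters' processing notes. The software version is not given in the sources used here. All arrays of the deposited table had been scaled to nearly equal trimmed means, and this scaling was kept.

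Of 22810 probe sets, 64 controls were left out. Signals under 8 were raised to 8 and log2 was taken. A limma fit (R 4.3.3, limma 3.58.1) of all 16 arrays with 6 group means had 10 residual degrees of freedom. Spread was moderated with eBayes and its trend option, and p-values were adjusted by Benjamini-Hochberg over all 22746 probe sets. Errors of log2 changes are SEs of this fit, and errors of signals are SDs over 3 arrays. For arrays, their number limits the precision. Replicates are biological replicates per the labels. The fit was tested on simulated data.

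A single gene is listed for 13513 probe sets, more than 1 for 503 and no gene for 8730. Symbols were updated through RefSeq (TAIR10.1), with 13436 matched to a locus. For a gene with several probe sets, lists used the brightest. Genes were picked by a rule, and not every gene picked is described. The rule took the 15 largest changes each way with all 6 arrays above the floor. It also took the 8 largest each way with a mean of at least 1000 in the higher group. The 5 largest with a group at the floor and up to 4 members of each list were added. The last were genes called the other way in the vector line and the 3 smallest p each way for the difference between times. Picked but not described were, for instance, AT3G07600 (2.84), whose call was lost without 5 of the arrays, and AT1G29660 (-0.88), whose call was kept. Gene families by symbol stem (such as GH9, BGLU, ALDH, TBL and IQD) and the remaining called genes with a symbol were chosen after their values had been seen. The comparison, its rule and the lists were chosen with earlier results of these data known. Induction of the transgene is not reported here.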

Additional observations from a re-analysis of the deposited data

How the results depend on the processing

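The 2 h counts of 444 rises and 139 falls stayed within 1.5 times under quantile normalization, median centring, a floor of 32, an offset of 32, leaving out the dimmest 25% or 50%, eBayes without its trend, array weights and the 12 rga arrays alone (362 to 515 rises and 94 to 192 falls). The 6 arrays alone gave 185 rises and 47 falls and called 19 of the 42 rises and 2 of the 11 falls with a symbol. That fit has fewer arrays behind the estimate of spread and leaves out the vector line. Arrays of the same group correlated at 0.974 and 0.977 in the vector line and at 0.956 to 0.964 at 2 h. The part of either in the lower counts was not tested. A minimum of 1.5-fold left 332 and 67. Leaving out 1 of the 6 arrays gave 309 to 416 rises and 69 to 116 falls. The falls moved by over 1.5 times without mock array 1 (84), mock array 2 (87), mock array 3 (92) or DEX array 1 (69), and the cause was not tested. Deviations of same-numbered mock and DEX arrays from their group means at 2 h correlated at 0.0121, 0.0451 and 0.0209. Arrays of different number correlated at -0.0394 to 0.0207. Whether arrays of the same number share a batch was not tested. With the pair number as a replicate block there were 310 rises and 73 falls, and with the number as a replicate block within each line 361 and 97.

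For the difference between 4 h and 2 h, where 0 were called, quantile normalization gave 2, median centring 3, a floor of 32 gave 14, an offset of 32 gave 10, leaving out the dimmest 25% or 50% gave 8 and 8, and the replicate block within each line gave 1. Leaving out 1 array gave 0 to 8, the 8 without 4 h mock array 3. The cause was not tested. Of 96 called named genes followed, 33 kept their call under every alternative and none reversed. The 80 genes not called included 6 that were called under some alternative. Dim genes with arrays at the floor (24 of the 444 and 5 of the 139) have log2 changes that depend on that floor.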
